A study of Mus musculus with 6 samples.

Results

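The clustered protocadherins were taken as every gene of the count table whose symbol places it in the alpha, beta or gamma protocadherin cluster. There were 58 such genes of 24421 in the table, 14 in the alpha cluster, 22 in the beta cluster and 22 in the gamma cluster. RNA came from nuclei labelled as those of Foxp2-positive neurons and sorted from the mPFC (medial prefrontal cortex) of mice of the Foxp2-Cre line. Foxp2 is a transcription factor found in deep-layer corticothalamic neurons, and the line serves to target Cre recombinase to cells that express it. Both groups had received a bilateral injection of a virus (AAV) carrying GFP fused to KASH, a domain that anchors it in the nuclear envelope, 4 weeks before collection, and they differed in treatment, CFA or saline. CFA commonly stands for complete Freund's adjuvant, which causes inflammation and lasting pain, and the study's title concerns chronic pain. There were 3 libraries per group. The labels give no age, sex or interval between treatment and collection, and they do not state how many animals each library represents. The p-values below therefore rest on the spread among libraries, part of which may be technical.

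Clustered protocadherins are cell-surface adhesion proteins of the cadherin superfamily that bind the same isoform on an opposing membrane. Each neuron switches on its own small set of isoforms by choosing among alternative promoters, a choice that depends on the insulator protein CTCF and on cohesin, and the resulting surface code lets the branches of a neuron recognise and avoid each other. Alpha and gamma genes each join a variable first exon, which encodes the extracellular, transmembrane and proximal cytoplasmic parts, to constant exons that encode a cytoplasmic tail common to the cluster, whereas beta genes have a single exon and no common tail. The C-type members Pcdhac1, Pcdhac2, Pcdhgc3, Pcdhgc4 and Pcdhgc5 lie at the ends of the alpha and gamma clusters and are regulated apart from the stochastically chosen isoforms.

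The libraries held 9673038 to 11850741 counts each. Levels are given as CPM, counts scaled to a common library size with TMM factors. A gene with 0 counts could have a level of up to 3 counts, or 0.250 to 0.304 CPM depending on the library, a limit for counting error alone. Markers fixed for the labelled cells were detected throughout: all 8 corticothalamic and all 4 cortical excitatory markers had counts in every library. Detection did not set these cells apart, as all 7 inhibitory neuron, 9 astrocyte and 6 oligodendrocyte markers also had counts in every library. Ntsr1 was lower under CFA without overlap, at 14.0 ± 2.11 against 21.0 ± 2.06 CPM, and the other corticothalamic markers overlapped. The CFA libraries had 29.2 ± 5.50 CPM (SD, n = 3) of Foxp2 and the saline libraries 33.8 ± 8.61. For Slc17a7, the cortical vesicular glutamate transporter, these levels were 2279 ± 357 and 2144 ± 177 CPM. Gad1 and Gad2, the enzymes of GABA synthesis, were at 64.9 ± 18.8 and 22.3 ± 8.57 CPM in CFA libraries and at 60.2 ± 12.4 and 19.0 ± 6.91 CPM in saline libraries, so that transcripts of inhibitory neurons were present in both groups. Oligodendrocyte precursor markers were the only list of the 9 marker lists whose summed level did not overlap between groups. Over its 6 genes the sum ran from 30.8 to 43.7 CPM under CFA and from 18.4 to 27.6 CPM under saline. Its members did not all move together. Pdgfra, Olig1 and Gpr17 were higher under CFA without overlap, and Olig1, the largest part, averaged 20.7 against 12.4 CPM. Cspg4 was lower under CFA without overlap, at 1.75 against 3.77 CPM, while Olig2 and Sox10 overlapped. Only 3 of the 6 genes had counts in every library. The part of this list in the results on protocadherins was not tested. In such bulk libraries, fewer cells of a type and less RNA per cell cannot be told apart.

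All 58 genes lay on the plus strand of chromosome 18 (mm10) within 912 kb, from 36930285 to 37841872, in the order alpha, beta, gamma. The alpha gene models ran from 36930285 to 37187660, the beta genes from 37264998 to 37521419 and the gamma models from 37661945 to 37841872. Between the beta and gamma clusters lay Slc25a2, listed at 0 counts in all libraries, and Taf7, which encodes a subunit of the general transcription factor TFIID, with 18.2 ± 2.81 CPM under CFA and 18.8 ± 3.86 CPM under saline. Both are on the minus strand and shared no exon sequence with a protocadherin.

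How a read is assigned bears on every value of the alpha and gamma clusters. The 14 alpha models each held the same 3 constant exons, of 59, 89 and 2712 bases (37156155 to 37156213, 37159265 to 37159353 and 37184946 to 37187657). The 22 gamma models held constant exons of 59, 89 and 1961 bases in common, beginning at 37825021, 37833265 and 37839903. Shared sequence made up 52.7% to 100% of the exon length of an alpha model and 41.7% to 47.2% of a gamma model, against 0% for every beta gene. Of all gene models, 13.5% shared any exon sequence with another. The sequence that an alpha or gamma model held alone was in essence its first exon, 2364 to 2961 bases long in the gamma cluster and, where present, 2346 to 2562 bases in the alpha cluster.

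**Figure D1:**
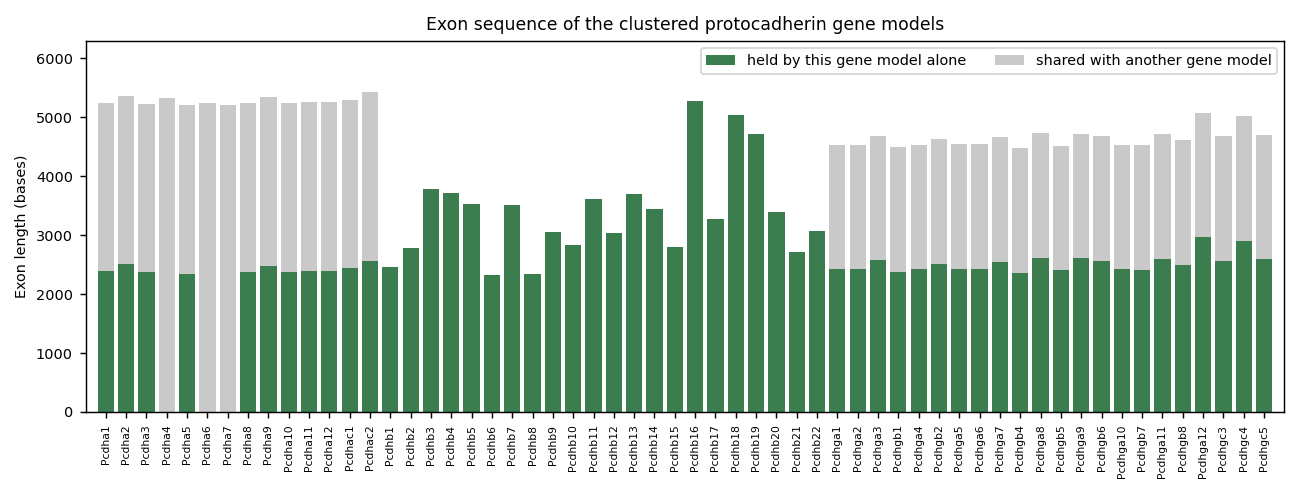
Exon length in bases (vertical axis) of the 58 gene models in chromosomal order, split into sequence held by that model alone (green) and sequence shared with another gene model of the table (grey). Pcdha4, Pcdha6 and Pcdha7 have no green part, and the 22 beta genes have no grey part.

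Reads within shared exons were not counted toward each model that holds them. Pcdha4, Pcdha6 and Pcdha7 had 10, 16 and 11 counts over all 6 libraries together, although their models include the constant alpha exons. In addition to the constant exons, the first exons of these genes were covered by the models Gm37013, Gm38666 and Pcdha7-g, which join an alpha first exon to the gamma constant exons. These models had 6, 6 and 5 counts in all. The same held outside the clusters: of 477 gene models with no exon base of their own 467 had 0 counts in every library and 0 were tested, whereas 56.6% of the 23944 models with sequence of their own were tested. No source used here states how reads that overlap several genes, or align to several places, were set to be handled. The near absence of Pcdha4, Pcdha6 and Pcdha7 in the table is therefore no measurement of their transcription. Counts of the other alpha and gamma genes stand for their first exons, at the 5′ end of the transcript, while a beta count covers the whole transcript.

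Similar sequence at different positions is the other way in which counts can be lost or moved between members. First exons were compared in stretches of 50 bases, using GENCODE M21 transcripts of the same build, which held 57 of the 58 (all but Pcdha10). Among the alpha genes a median of 14.7% of the stretches also occurred in another member, with the highest value, 24.7%, in Pcdha7, whose closest relative was Pcdha8. In the beta cluster the median was 4.58% and the highest value 11.99%, in Pcdhb12, which shared 8.01% of its stretches with Pcdhb11. The gamma cluster was divided. The 12 gamma A genes shared 0% to 4.25%, while the 7 gamma B genes shared 2.87% to 18.5%, the most being in Pcdhgb1 and Pcdhgb2 (18.5% and 18.1%), each of which shared mainly with the other. All 5 C-type members shared 0%, as did Pcdhb1, Pcdhga1, Pcdhga7, Pcdhga11 and Pcdhga12. With stretches of 75 bases the medians were 8.79% in the alpha, 1.28% in the beta and 0% in the gamma cluster. No source used here states the read length, and longer or paired reads would be assigned more often.

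Together the 58 genes held 0.0493% to 0.0672% of the counts of a library, and 55 to 57 of them were detected in each. Levels are compared between genes as CPM per kb of exon sequence held by the gene alone, which leaves out Pcdha4, Pcdha6 and Pcdha7. On this scale the members were low beside other genes, although alpha and gamma values rest on first exons at the 5′ end. The effect of this on the comparison was not tested. The median over the 53 members that passed the filter on low counts was 2.57 CPM per kb, against 10.3 CPM per kb over all 13560 genes that did, and 3 of the 53 lay above that median. These 3 were Pcdhgc5, Pcdhac2 and Pcdhb9, 1 from each cluster. Non-clustered protocadherins, adhesion proteins that are encoded elsewhere by ordinary single genes, ran on the same scale from 0.522 CPM per kb for Pcdh18 to 89.3 CPM per kb for Pcdh9.

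Pcdhgc5, a C-type gamma protein known to bind GABA-A receptors at inhibitory synapses, was the most abundant member. Its first exon lies at 37819546 to 37822134. It stood at 139, 87.9 and 131 CPM in the CFA libraries and at 71.8, 98.8 and 98.3 CPM in the saline libraries. Per kb of its own exon its mean level was 40.4 ± 9.94 (SD, n = 6), above 82.6% of the genes tested. It held 32.3% to 40.8% of the summed level per kb of the gamma cluster, and its lowest library lay above the highest library of every other gamma gene.

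Pcdhac2, the C-type alpha protein that serotonergic axons need for even spacing, was the second most abundant member. Its first exon lies at 37143969 to 37146530. It stood at 82.8, 77.2 and 90.8 CPM in CFA and at 76.8, 65.1 and 66.7 CPM in saline libraries, a mean of 29.9 ± 3.79 CPM per kb. Alone it made up 43.2% to 56.0% of the summed level per kb of the 11 measurable alpha genes. Its spread between replicates was small, with a biological coefficient of variation (BCV, the relative spread beyond counting error) of 7.84%. The ranges of Pcdhgc5 and Pcdhac2 over the 6 libraries overlapped, so their order is not resolved, but both lay wholly above the next member, Pcdhb9.

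The other C-type genes were far lower. Pcdhgc4, which supports the survival of cortical interneurons, had 10.3 ± 3.13 CPM under CFA and 9.47 ± 6.31 CPM under saline, or 3.40 CPM per kb. Pcdhac1 was at 5.61 ± 2.18 and 7.57 ± 3.28 CPM, or 2.71 CPM per kb. Pcdhgc3, which promotes dendrite branching in cortical neurons, was at 3.48 ± 1.91 and 3.04 ± 2.17 CPM, or 1.27 CPM per kb. High abundance was thus found for Pcdhgc5 and Pcdhac2 and not for the C-type class as a whole. Over the 6 libraries Pcdhgc4 ran from 1.82 to 5.76 CPM per kb and Pcdhac1 from 1.42 to 4.66 CPM per kb. Pcdhgc3 ran from 0.325 to 2.01 CPM per kb, and the ranges of Pcdhgc4, Pcdhac1 and Pcdhgc3 overlapped.

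Pcdhb9 was the highest beta gene. It lies at 37400855 to 37403909 and its mean level was 12.5 ± 3.38 CPM per kb, above the highest library of the next beta gene, Pcdhb17 (5.20 ± 0.964 CPM per kb). The 3 highest beta genes, Pcdhb9, Pcdhb17 and Pcdhb12 (5.05 ± 2.13), held 32.9% to 53.3% of the summed level of the cluster. At the other end, Pcdhb1 had 0 counts in 5 libraries and 4 counts in saline replicate 3. The median over the 22 beta genes was 1.29 CPM per kb.

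Among the alternative isoforms of the alpha and gamma clusters the levels were more even. Of the 9 measurable genes from Pcdha1 to Pcdha12 the median was 3.11 CPM per kb, from 0.690 for Pcdha1 to 7.14 ± 2.13 for Pcdha12 (first exon 37020230 to 37022623). Pcdha11 was next at 4.37 ± 2.44, and the libraries of this pair overlapped. The 12 gamma A genes had a median of 3.91 CPM per kb and were led by Pcdhga8 (6.92 ± 3.26) and Pcdhga7 (5.20 ± 1.49), whose ranges overlapped. The 7 gamma B genes had a median of 1.49 CPM per kb. Spearman's rho between a gene's mean level and its share of repeated 50-base stretches was -0.40 over the 22 gamma genes, -0.36 over 10 alpha genes and 0.52 over the 22 beta genes, where genes with more repeated sequence tended to be higher. The alpha and gamma values include the C-type genes, which shared 0%, and the gamma value spans both gamma A and gamma B genes. These values describe genes that share libraries. Below the top member of each cluster every pair of neighbours in the order of levels overlapped over the 6 libraries, so finer ranks are not resolved.

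**Figure D2:**
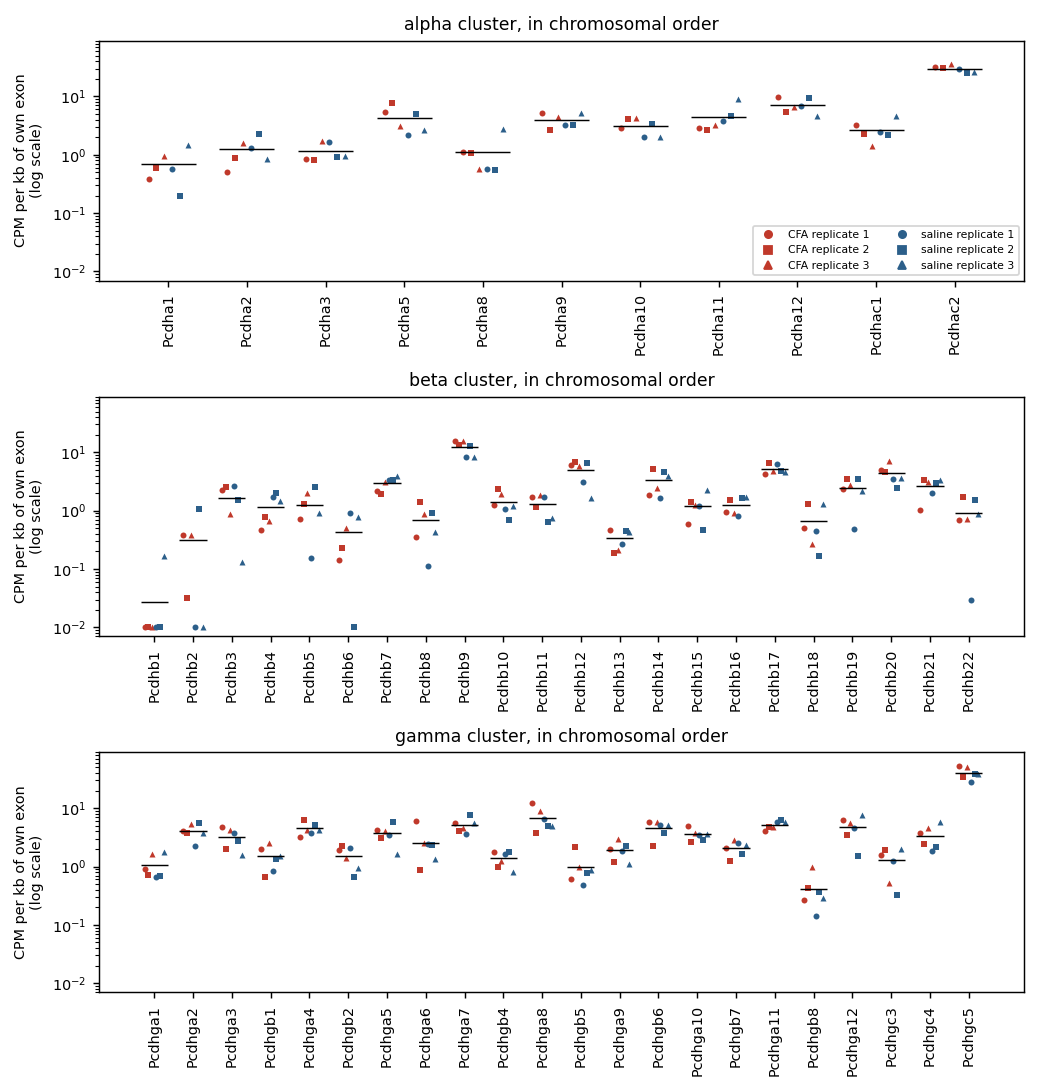
Level of each member in CPM per kb of exon sequence held by that gene alone (vertical axis, log scale), in chromosomal order within each cluster, for the 3 CFA (red) and 3 saline (blue) libraries, with the mean over the 6 as a line. Values of 0 are drawn at 0.01, and Pcdhac2, Pcdhb9 and Pcdhgc5 stand above the rest of their clusters.

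Level followed position most closely in the alpha cluster, where genes nearer the constant exons tended to be higher. Spearman's rho between start position and mean level was 0.74 over the 11 alpha genes, 0.34 over the 22 beta genes and 0.16 over the 22 gamma genes. These are descriptions over genes that share libraries and neighbouring regulatory sequence. The rank order of the 55 measurable members was broadly kept between libraries, with rho between pairs of libraries from 0.69 to 0.89. Within clusters rho ran from 0.53 to 0.94 in the alpha, from 0.61 to 0.89 in the beta and from 0.58 to 0.86 in the gamma cluster.

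The clusters as wholes differed in weight. Summed over all members, gamma genes reached 338, 217 and 320 CPM in CFA and 221, 252 and 261 CPM in saline libraries. Beta genes reached 163, 206 and 188 CPM in CFA and 133, 185 and 149 CPM in saline libraries. Alpha genes reached 161, 145 and 159 CPM in CFA and 136, 142 and 149 CPM in saline libraries. The gamma sum was above the beta and the alpha sum in every library, though in CFA replicate 2 it exceeded the beta sum by little. Divided by the whole length of the gene models, gamma genes held 41.9% ± 4.51 (SD, n = 6) of the summed level, beta genes 37.6% ± 4.76 and alpha genes 20.5% ± 1.43. Divided by the sequence a model holds alone, the shares were 48.2% ± 4.12, 23.9% ± 3.66 and 27.9% ± 1.76. The order of the alpha and beta means thus depends on the length used. By whole length, beta genes held more than gamma genes in CFA replicate 2 (45.5% against 34.4%) and in saline replicate 2 (40.6% against 39.8%). By own sequence, beta genes held more than alpha genes in CFA replicate 2 (30.0% against 28.5%).

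The treatment groups overlapped for the sum of each cluster. The log2 ratio of CFA to saline means was 0.26 for the gamma, 0.26 for the beta and 0.12 for the alpha cluster. The gamma ratio was 0.14 without CFA replicate 1 and 0.43 without CFA replicate 2, and the beta ratio was 0.15 without saline replicate 1 and 0.40 without saline replicate 2. In the alpha cluster the difference lay in Pcdhac2, without which the sum was 71.5 ± 6.18 CPM under CFA and 73.1 ± 12.03 CPM under saline. In the gamma cluster Pcdhgc5 carried most of it. Without this gene the sums were 172 ± 38.0 and 155 ± 6.96 CPM.

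**Figure D3:**
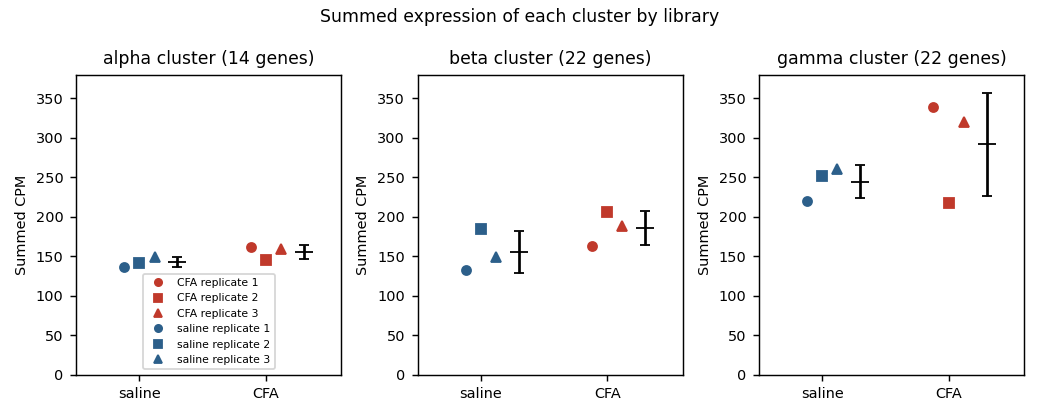
Summed CPM (vertical axis) of all members of the alpha, beta and gamma clusters in each saline (blue) and CFA (red) library, with the group mean ± SD (n = 3) in black. The groups overlap in each cluster, and CFA replicate 2 is the lowest gamma library but the highest beta library.

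CFA replicates 1 and 2 ranked in opposite ways for the beta and gamma clusters. The ratio of gamma to beta sums was 2.07 in CFA replicate 1 and 1.05 in CFA replicate 2, with 1.70 in CFA replicate 3 and 1.66, 1.36 and 1.75 in the saline libraries. Of 21 beta genes tested 9 were highest in CFA replicate 2, and of 21 gamma genes tested 6 were highest in CFA replicate 1 and 6 lowest in CFA replicate 2. Saline replicate 1 was also lowest for 6 gamma genes and was highest for 0. No share over all genes tested stands beside these counts. Of the 9 lists of cell type markers, 7 had their lowest or highest summed level in CFA replicate 2. CFA replicate 3 was so placed for 4 lists, CFA replicate 1 for 3 and saline replicates 1, 2 and 3 for 1, 2 and 1. Inhibitory neuron, oligodendrocyte and vascular markers were highest in CFA replicate 1. The summed level of the 6 striatal projection neuron markers was 335, 191 and 247 CPM in CFA and 699, 355 and 274 CPM in saline libraries. It was by far the highest in saline replicate 1. The summed level of the 4 cortical excitatory markers was 2892, 2429 and 3183 CPM in CFA and 2446, 2813 and 2758 CPM in saline libraries, lowest in CFA replicate 2 with saline replicate 1 close to it. The summed level of the 9 astrocyte markers was 566, 675 and 477 CPM in CFA and 478, 553 and 531 CPM in saline libraries, highest in CFA replicate 2. The part of cell makeup in the gamma and beta sums was not tested.

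Beta genes were the most variable between replicate libraries. The BCV of each gene was set against the trend of all genes at the same abundance. Of 21 beta genes tested 9 had a dispersion (the square of the BCV) over 2 times the trend, or 42.9%, against 12.6% of all genes tested, 4 of 21 gamma genes and 0 of 11 alpha genes. Pcdhb2 ranged from 0 counts in saline replicates 1 and 3 to 32 counts in saline replicate 2. Pcdhb22 had 1 count in saline replicate 1 against 23 to 59 counts elsewhere, and Pcdhb3 had 5 counts in saline replicate 3 against 34 to 113 counts elsewhere. These 3 genes and those in the next sentence were chosen after their values were seen. Pcdhb5 had 6 counts in saline replicate 1 and 96 in saline replicate 2, and Pcdhb19 had 26 and 180. Pcdhb22, Pcdhb5 and Pcdhb19 were thus lowest in saline replicate 1, and Pcdhb3 in saline replicate 3. The 0 counts of Pcdhb2 fell in both. Of the 21 beta genes tested, 7 were lowest in saline replicate 1, 6 in saline replicate 2 and 3 in saline replicate 3. CFA replicates 1, 2 and 3 were lowest for 3, 2 and 0 of them.

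Variation was not uniform within the beta cluster. Pcdhb17, Pcdhb9, Pcdhb7 and Pcdhb4 had BCVs of 19.0%, 18.7%, 14.7% and 12.3%, each below the trend. A place below the trend was common, as 37.1% of all genes tested and 57.1% of beta genes tested were above it. With 3 libraries per group the BCV of a single gene is imprecise. The ratio of the highest to the lowest of the 6 libraries had a median of 4.09 over the 21 beta genes, 3.28 over the 11 alpha genes, 2.71 over the 21 gamma genes and 1.76 over all genes tested, where low genes have larger ratios from counting alone. A gene with 0 counts was set at the floor of 3 counts for this ratio.

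**Figure D4:**
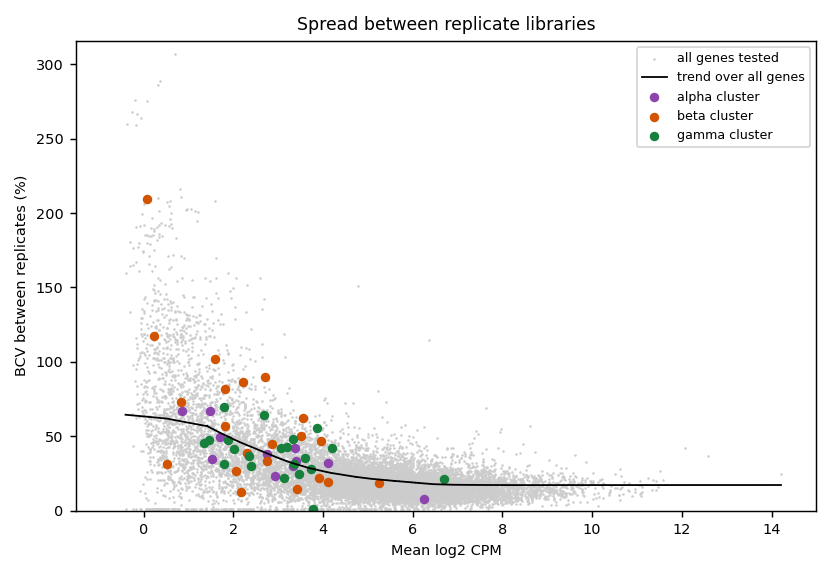
BCV between replicate libraries of each gene (vertical axis, percent) against its mean log2 CPM (horizontal axis), for all 13560 genes tested (grey) and for the 53 clustered protocadherins among them (coloured), with the trend over all genes as a black line. Of the beta genes, 9 have a dispersion over 2 times the trend, and 0 of the 11 alpha genes do.

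The study design sets CFA against saline, and the question here is whether single isoforms differed with treatment. No clustered protocadherin passed the threshold. With edgeR's quasi-likelihood test and Benjamini-Hochberg adjustment over 13560 genes, 0 of 53 members tested had an adjusted p under 0.05, where 0 genes of the whole table did (0%), and the smallest adjusted p of a member was 0.99997. The members that did not pass the filter on low counts were Pcdha4, Pcdha6, Pcdha7, Pcdhb1 and Pcdhgb8. At an unadjusted p under 0.05, 2 members were higher in CFA, where 1.35% of all genes tested were, and 2 were lower, where 1.87% were. DESeq2, limma-voom and edgeR's likelihood ratio test also called 0 members.

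The groups did not overlap for 4 members that were higher in CFA (7.55%, against 3.55% of all genes tested) and 4 that were lower (7.55%, against 3.97%). Pcdhac2, Pcdhb9, Pcdhb10 and Pcdhb20 were the higher ones, and Pcdha11, Pcdhb4, Pcdhb7 and Pcdhga11 the lower ones. At these small counts the excess over the background is a matter of a few genes, and both directions were represented equally.

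Of the genes higher in CFA, Pcdhb20 (37504264 to 37507661) was at 17.0, 15.4 and 24.4 CPM in CFA and at 11.99, 8.35 and 12.5 CPM in saline libraries. All 3 CFA libraries were above all 3 saline libraries, with a log2 fold change of 0.79 ± 0.29 (SE) and an unadjusted p of 0.0170 by the same edgeR test. Pcdhb9 was at 48.4, 41.5 and 47.6 CPM in CFA and at 25.9, 39.9 and 25.0 CPM in saline libraries, where saline replicate 2 came close to the CFA libraries. Its log2 fold change was 0.60 ± 0.23, with an unadjusted p of 0.0195 in the same edgeR test. Pcdhb10, outside the rule for named genes and chosen after its values were seen, was at 5.23 ± 1.59 and 2.81 ± 0.775 CPM. Pcdhac2 had a log2 fold change of 0.27 ± 0.18, with each CFA library above each saline library by a narrow margin. Pcdhgc5 had a log2 fold change of 0.41 ± 0.21, and its groups overlapped because CFA replicate 2, at 87.9 CPM, was below saline replicates 2 and 3.

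Of the genes lower in CFA, Pcdhb4 (37307455 to 37311173) had the smallest p among the members. It was at 1.75, 2.91 and 2.499 CPM in CFA and at 6.26, 7.42 and 5.37 CPM in saline libraries. The groups were well apart for this gene, with a log2 fold change of -1.41 ± 0.49 (SE) and an unadjusted p of 0.0123 by the same edgeR test. Counts behind these values ran from 21 to 33 in CFA and from 53 to 80 in saline libraries. Pcdha11 (first exon 37010858 to 37013251) was at 6.91, 6.35 and 7.69 CPM in CFA and at 9.04, 10.9 and 21.9 CPM in saline libraries. The high value came from saline replicate 3, and the log2 fold change of -0.997 ± 0.37 became -0.52 without that library. Pcdhb7 had 8.46 ± 2.13 CPM under CFA and 12.5 ± 1.04 CPM under saline (log2 fold change -0.56 ± 0.32). For Pcdhga11 the levels were 11.6 ± 1.06 and 15.3 ± 0.662 CPM (-0.40 ± 0.27). These 2 genes were steady within groups, and their differences were small.

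For the other named members the groups overlapped. Pcdha5 had a log2 fold change of 0.72 ± 0.41, from 12.7 ± 5.30 CPM under CFA and 7.72 ± 3.55 CPM under saline. Pcdhb12 was at 19.0 ± 1.48 and 11.6 ± 7.79 CPM and was low in saline replicates 1 and 3 only, at 9.48 and 5.07 CPM against 20.2 CPM in saline replicate 2. Pcdhga8 was at 21.9 ± 11.5 and 14.2 ± 2.41 CPM, with 32.4 CPM in CFA replicate 1 against 9.70 CPM in CFA replicate 2. Each of these 3 genes was pulled by 1 or 2 libraries of a group. Pcdha12, Pcdhac1, Pcdhb17, Pcdhga7, Pcdhgc3 and Pcdhgc4 had log2 fold changes of 0.06, -0.43, 0.00028, -0.24, 0.20 and 0.12, with standard errors of 0.27 to 0.71. The value of Pcdhac1 was -0.01 without saline replicate 3 and -0.75 without CFA replicate 1.

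By cluster, log2 fold changes of both signs were found, in members of which 0 passed the test. In the gamma cluster 16 of 21 genes tested had a positive log2 fold change and 5 a negative one, with a median of 0.16. In the beta cluster 12 of 21 were positive, with a median of 0.14 and a range from -1.41 to 0.89. In the alpha cluster 5 of 11 were positive, with a median of -0.03. Over all genes tested the median was -0.0011, with 49.8% positive. The median SE was 0.46 over the members and 0.25 over all genes tested, so that differences in these genes were measured less precisely than in most others. The beta median turned to -0.17 without CFA replicate 2 and to -0.22 without saline replicate 1, and the alpha median turned to 0.24 without saline replicate 3 and to 0.16 without CFA replicate 2. The beta median was 0.63 with limma-voom. The gamma median stayed between 0.08 and 0.31 whichever library was left out, but the count of signs moved. Without CFA replicate 1, 13 gamma genes were positive and 9 negative, and without CFA replicate 3, 13 and 8. Without CFA replicate 2, 17 were positive and 4 negative.

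**Figure D5:**
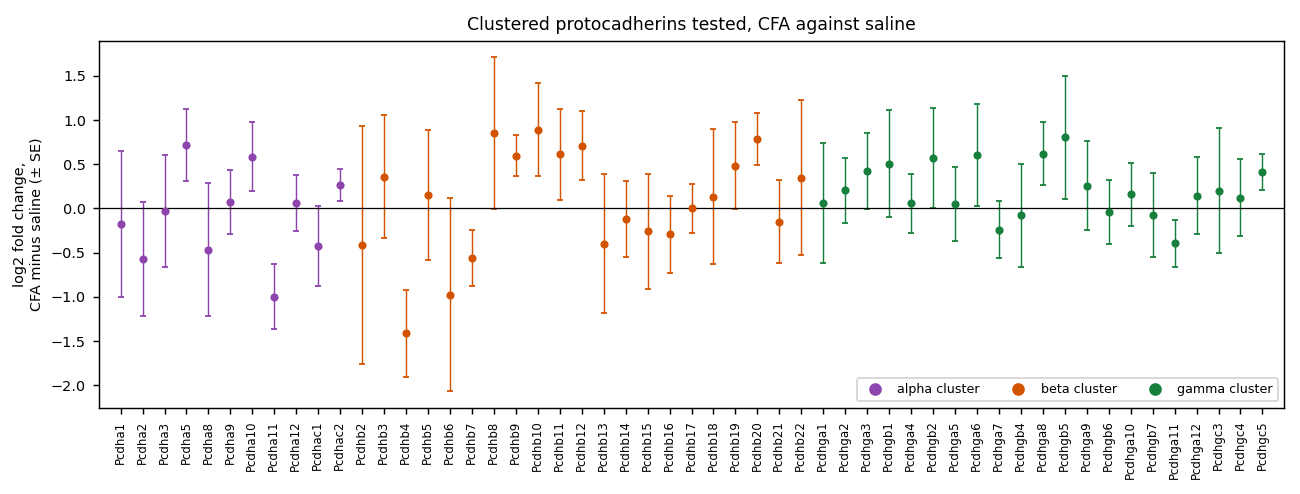
Log2 fold change, CFA minus saline, with SE (vertical axis) of the 53 clustered protocadherins tested, in chromosomal order and coloured by cluster. Most gamma genes lie slightly above 0, and beta genes lie on both sides, from -1.41 for Pcdhb4 to 0.89 for Pcdhb10.

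Genes that act on or with clustered protocadherins also did not pass the test. Of 17 genes of promoter choice and chromatin 16 were tested and 0 were called, with 4 positive and 12 negative log2 fold changes and a median of -0.13. Smchd1, a chromatin protein that silences the protocadherin clusters, was at 39.4, 30.9 and 30.8 CPM in CFA and at 51.1, 43.1 and 57.2 CPM in saline libraries. All CFA libraries were below all saline libraries, with a log2 fold change of -0.58 ± 0.21 (SE) and an unadjusted p of 0.0140 by the same edgeR test. Stag2, a cohesin subunit, had a log2 fold change of -0.32 ± 0.23, with overlap between the groups. Ctcf, which binds protocadherin promoters, was at 56.1 ± 7.02 and 49.9 ± 10.2 CPM, and the cohesin subunit Rad21 at 42.4 ± 6.14 and 38.5 ± 9.54 CPM; both were chosen for their role, outside the rule for named genes. Dnmt3b, a DNA methyltransferase of the clusters in early development, was near the floor at 0.390 ± 0.450 and 0.619 ± 0.567 CPM and was not tested.

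Of the 17 intracellular and membrane partners 0 were called, with 7 positive and 10 negative log2 fold changes. Ptk2b, a focal adhesion kinase family member that protocadherins inhibit, and Cyfip1, a subunit of the WAVE actin regulator, had the smallest p, with log2 fold changes of 0.17 ± 0.17 and 0.18 ± 0.18. The groups did not overlap for Cyfip1, higher in CFA, and for Abi2, lower in CFA and outside the rule for named genes. Of the 7 genes of ADAM10 and gamma-secretase, the proteases that cut protocadherins at the membrane, 0 were called, with 4 positive and 3 negative. Aph1b, a gamma-secretase subunit, was at 48.2, 43.6 and 46.1 CPM in CFA and at 37.6, 24.7 and 34.2 CPM in saline libraries. The groups did not overlap, with a log2 fold change of 0.52 ± 0.21 (SE) and an unadjusted p of 0.0302 by the same edgeR test. Ncstn, another subunit, had a log2 fold change of 0.17 ± 0.18. Over the promoter, partner and protease lists together 40 genes were tested. The groups did not overlap for 2 of them higher in CFA (5%, against 3.55% of all genes tested) and 2 lower (5%, against 3.97%). Of the 10 non-clustered protocadherins 0 were called, with 4 positive and 6 negative and a median of -0.09. Their dispersion was above the trend in 2 of 10, against 27 of the 53 clustered protocadherins and 37.1% of all genes tested.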

How the data were processed

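The authors deposited raw counts per gene, 1 column per library, with exon intervals and exon length per the file headers. The submitters' processing notes name the build mm10, the counter featureCounts 2.0.1, the aligner HISAT2 2.2.1, Trim Galore, edgeR 3.32.1 and SAMtools 1.13. Per the labels' protocols, RNA of sorted nuclei was converted to cDNA with Smart-seq V4 and prepared with Nextera XT, which do not mark strand. Groups and replicate numbers came from sample titles.

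Genes were compared with edgeR 4.0.16 (R 4.3.3; quasi-likelihood test, TMM, filterByExpr, treatment as the only term, threshold 0.05), and SEs were derived from the F statistic. The script was tested on simulated data. CPM values used TMM factors. Exon sharing was computed from the intervals in the table. Without a genome, repeated stretches were sought among members' first exons and transcripts of other chromosomes (GENCODE M21). Wapl was found as Wapal.

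The members and lists were chosen with earlier results of these data known. Named members were the 3 highest per cluster, the C-type genes and, per cluster, the 2 with the smallest p in each direction. Named pathway genes were the 2 with the smallest p per list. Neighbouring genes and Foxp2, Slc17a7, Gad1 and Gad2 were also named. Alternatives were RLE and library-size scaling, other filters, DESeq2 1.42.0, limma-voom (limma 3.58.1), the likelihood ratio test, a replicate block and leaving out each library.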

Additional observations from a re-analysis of the deposited data

How the results depend on the processing

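Members and pathway genes called were 0 under every alternative run. Over the whole table, 9 genes were called without a filter on low counts, 5 with DESeq2, 11 with the likelihood ratio test, 6 with the replicate block and 0 to 5 when 1 library was left out (5 without saline replicate 3). The titles do not say whether same-numbered libraries were paired. Deviations of same-numbered libraries from their group means correlated at -0.08, 0.02 and -0.07. With 3 libraries per group these values cannot decide whether there was pairing. The beta median log2 fold change was 0.63 with limma-voom and 0.63 with the replicate block, and -0.22 to 0.36 when 1 library was left out. The alpha median was -0.17 to 0.24 in the same way, and above 0 without a filter, with the filter at 5 CPM, with limma-voom and with the replicate block. The log2 ratio of summed CPM kept its sign under the scalings and left-out libraries, at 0.09 to 0.17 in the alpha, 0.15 to 0.40 in the beta and 0.14 to 0.43 in the gamma cluster when 1 library was left out.

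The named members that changed sign under an alternative were Pcdhb17, Pcdha12, Pcdhga7, Pcdhgc3 and Pcdhgc4. Their log2 fold changes in the quasi-likelihood fit were 0.00028, 0.06, -0.24, 0.20 and 0.12. Pcdhb17 was at -0.011 with RLE, -0.0025 with at least 5 CPM in at least 3 libraries, -0.012 with DESeq2, -0.016 with limma-voom and -0.0073 with the replicate block. Leaving out 1 library gave -0.20 to 0.16 for Pcdhb17, -0.22 to 0.36 for Pcdha12, -0.49 to 0.064 for Pcdhga7, -0.24 to 0.81 for Pcdhgc3 and -0.17 to 0.82 for Pcdhgc4. Low counts kept Pcdhb1 and Pcdhgb8 out of the test, and Pcdha4, Pcdha6 and Pcdha7 have no exon sequence of their own. Repeated sequence could be sought only among members and transcripts, not in the genome.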
